A study of Mus musculus with 24 samples.

Results

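The subject is a set of 596 chromatin regions that became detectable in bone marrow-derived macrophages after stimulation with lipopolysaccharide (LPS) and interferon gamma (IFNγ), out of 102580 regions found in any library. Members were selected on detection alone. Overlapping peaks of all 24 libraries (1 bp or more in common) were joined into merged regions, and a merged region was a member if it carried a peak in at least 11 of the 12 stimulated libraries and in at most 1 of the 12 unstimulated ones. Members are called opened regions below. They were 0.581% of all merged regions. The mirror rule, at least 11 unstimulated and at most 1 stimulated library, picked 659 regions (0.642%), called closed regions below. Detection in stimulated and unstimulated libraries chose the members. The difference between these states is therefore described, and a test of it is no support for the members. Opened means that a peak passed the caller's threshold, and a region without a peak was below that threshold and not shown to be closed.

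Chromatin accessibility was measured by ATAC-seq, in which the transposase Tn5 inserts sequencing adapters into open DNA. The macrophages were grown from the marrow of male C57Bl/6 mice. Diabetic mice had received streptozotocin (STZ), which kills the beta cells of the pancreas, and the control mice were non-diabetic. Per the series description, 6 diabetic and 6 control samples were each divided, with a portion left unstimulated and a portion given LPS and IFNγ (100 ng/mL and 10 ng/mL per the labels), which makes 4 groups of 6 libraries. The labels do not say whether a replicate number marks portions of the same sample. The labels state no glucose level for the culture, so diabetic refers to the mouse that gave the marrow. How long the cells were stimulated is unclear, as the protocol text speaks of hours with IL-1β, a stimulus absent from the other labels. The authors called peaks in each library separately, and the lists held 41385 to 61861 peaks. Read totals were not given, so the depth behind a peak is unknown. Nothing in the labels says that each of these samples came from its own mouse, so p-values measure the spread between these libraries. Macrophage markers were accessible, since 12 of 15 macrophage marker genes had a peak summit within 1 kb of a gene end in all 24 libraries and none had 0, while 6 of 11 neutrophil, 6 of 11 T and NK cell, 4 of 8 B cell, 5 of 9 erythroid, 2 of 8 dendritic cell and 3 of 10 stromal and endothelial markers had no such peak in any library. Some markers of other cells did have one in all 24 libraries, namely Camp, Mmp8, Cd3d, Pf4, Xcr1, Batf3 and Kdr, and the part of other cells in the results was not tested.

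In resting macrophages, the lineage factors PU.1 and C/EBP keep a large set of enhancers open. LPS acts through TLR4 to switch on NF-κB and AP-1, and IFNγ acts through its receptor and JAK kinases to switch on IRF factors. Most of these factors bind enhancers that are already open, but some sites lack accessible chromatin at rest and gain it on stimulation. Such sites are known as latent or de novo enhancers and usually lie away from promoters.

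Few opened regions lay at a gene start. RefSeq windows for transcript starts (assembly GRCm38.p6, the mm10 chromosomes) overlapped 8 of the 596 regions (1.34%). The share was 1.37% for closed regions and 10.8% for all merged regions. It was 28.9% for the other regions found in at least 11 stimulated libraries. These windows covered only part of the genes. In the 9 windows concerned, 250 bases before the start were read. Both strands were searched for 6 short motifs, AP-1 TGANTCA, NF-κB GGANTTTCC, the IFNγ-activated site GAS TTCNNNGAA, the IRF site ISRE GAAANNGAA, PU.1 GAGGAAGT and C/EBP TTGCNNAA. AP-1 and C/EBP letters each occurred in 4 of the 9 windows, GAS and ISRE letters in 1 each, and those for NF-κB and PU.1 in none. Over all 32851 windows of that length, AP-1 letters occurred in 6.75%, C/EBP letters in 9.56%, GAS in 7.02%, ISRE in 7.13%, PU.1 in 2.44% and NF-κB in 1.07%. The 3 genes with AP-1 letters and the interferon-induced chemokine gene Cxcl9 are shown, 5′ to 3′ on the strand of the gene and ending at the base before the start, with motif matches in capitals.

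Serpinb2, chr1:107511173-107511422, plus strand: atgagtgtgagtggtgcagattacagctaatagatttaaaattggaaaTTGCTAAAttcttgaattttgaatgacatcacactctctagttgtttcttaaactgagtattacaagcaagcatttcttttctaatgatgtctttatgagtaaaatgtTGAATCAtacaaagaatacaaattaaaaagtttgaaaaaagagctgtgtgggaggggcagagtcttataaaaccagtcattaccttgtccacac
Gm52636, chr3:81629375-81629624, plus strand: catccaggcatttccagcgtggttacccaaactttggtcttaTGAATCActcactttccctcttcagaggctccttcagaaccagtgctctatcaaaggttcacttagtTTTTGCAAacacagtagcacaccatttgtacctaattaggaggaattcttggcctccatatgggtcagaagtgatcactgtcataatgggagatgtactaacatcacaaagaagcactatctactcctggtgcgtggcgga
1700012B09Rik, chr9:14771031-14771280, minus strand: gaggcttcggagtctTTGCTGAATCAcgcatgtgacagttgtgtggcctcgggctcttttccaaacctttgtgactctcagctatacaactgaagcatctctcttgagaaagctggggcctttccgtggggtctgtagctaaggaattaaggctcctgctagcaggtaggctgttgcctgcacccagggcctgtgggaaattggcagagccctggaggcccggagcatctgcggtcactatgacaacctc
Cxcl9, chr5:92328080-92328329, minus strand: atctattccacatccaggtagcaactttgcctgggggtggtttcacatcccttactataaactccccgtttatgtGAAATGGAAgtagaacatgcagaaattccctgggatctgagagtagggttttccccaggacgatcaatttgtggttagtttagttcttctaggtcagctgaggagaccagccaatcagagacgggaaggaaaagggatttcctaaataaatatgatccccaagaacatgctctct

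All 3 AP-1 matches had the same letters, TGAATCA, and lay inside the opened region. Serpinb2, which encodes an inhibitor of plasminogen activators made by activated macrophages, had them 94 to 88 bases before this start, and a start 87 bp downstream shared the site. In the 1700012B09Rik window, the AP-1 and C/EBP matches overlap and form 1 run of capitals. The Cxcl9 window held the ISRE letters GAAATGGAA 175 to 167 bases before the start. The Serpinb2 region (chr1:107511138-107511523) was found in 11 stimulated and 0 unstimulated libraries. Windows at Serpinb1b, Gcnt2, Ocln and Nox1, the gene of a superoxide-producing oxidase, held none of the letters searched. A match describes the letters and does not show that a factor bound. A window without a match may hold other forms of a site, which were not searched.

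The opened regions fell into 4 classes of detection. A peak in 12 stimulated and 0 unstimulated libraries was found for 233 regions, and in 12 and 1 for 93. The counts were 11 and 0 for 189 regions, and 11 and 1 for 81. Just outside the rule, 155 regions were at 10 and 0, 76 at 10 and 1, 48 at 11 and 2, and 89 at 12 and 2. Strength within a library was read as the percentile of a peak in its own list, from 0 for the weakest to 100 for the strongest by the authors' −log10 q-value. The median percentile over stimulated libraries was 53.0 for regions at 12 and 0, 43.4 at 11 and 0, and 34.5 at 10 and 0, so regions inside and outside the rule formed 1 gradient.

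By library, the numbers of opened regions with a peak were 34, 4, 23, 8, 14 and 17 in unstimulated control macrophages and 16, 20, 20, 12, 3 and 3 in unstimulated diabetic ones. After stimulation they were 576, 580, 552, 564, 581 and 578 in control and 596, 579, 592, 571, 521 and 592 in diabetic macrophages. The means were 16.7 ± 10.8, 12.3 ± 7.81, 571.8 ± 11.5 and 575.2 ± 28.2 (SD, n = 6). The rule allows a member to lack a peak in 1 stimulated library at most, which keeps these counts high in both phenotypes. The lowest value, 521, belonged to diabetic replicate 5, which missed 75 regions and had 46503 peaks. Control replicate 3, with the shortest list, missed 44. Without diabetic replicate 5, at least 10 of the other 11 stimulated libraries and at most 1 unstimulated library gave 676 regions, all 596 members among them.

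**Figure D1:**
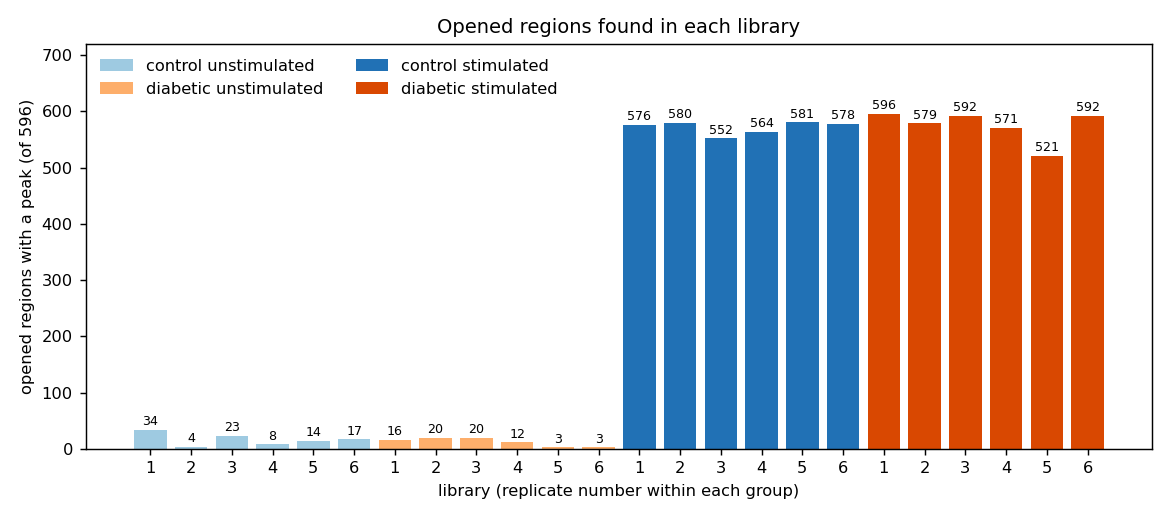
Bars show how many of the 596 opened regions carried a peak in each of the 24 libraries, by group and replicate number. Stimulated libraries hold 521 to 596 of the regions and unstimulated ones 3 to 34, a separation that the rule sets.

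Some members carried 1 peak at rest, which the rule allows. The 174 such regions had it in a control library in 100 cases and in a diabetic library in 74. The median percentile of the single resting peak was 11.05 (range 0.135 to 44.0). The strongest resting peak, at percentile 44.0 in control replicate 4, lay in Ikzf5, the gene of an Ikaros-family zinc finger factor (chr7:131397266-131397946). Resting peaks at percentiles 38.9, 38.9 and 36.8 followed near Nprl3, near Snapc1 and within Rin2, which act in nutrient sensing, small nuclear RNA transcription and Rab5 activation. Stimulated medians there were 75.6, 31.9 and 40.0, so the Snapc1 resting peak stood above its own. In 169 of the 174 regions the resting percentile was below the stimulated median, though lists of different length do not share a percentile scale.

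Within stimulated libraries, opened regions were of middling strength. Their median percentile was between 42.2 and 50.0 in the 6 control and between 39.4 and 56.3 in the 6 diabetic libraries, and the median fold over local background at the summit, a value of the authors, was 5.47 to 7.34. Over regions, the median percentile was 47.2, against 69.0 for the 29486 other regions found in at least 11 stimulated libraries. Regions open in both states make up much of that comparison set, and lists of different length do not share a percentile scale, so no change between libraries is read from these values. In bulk libraries, more cells with an open site and a more open site per cell cannot be told apart.

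**Figure D2:**
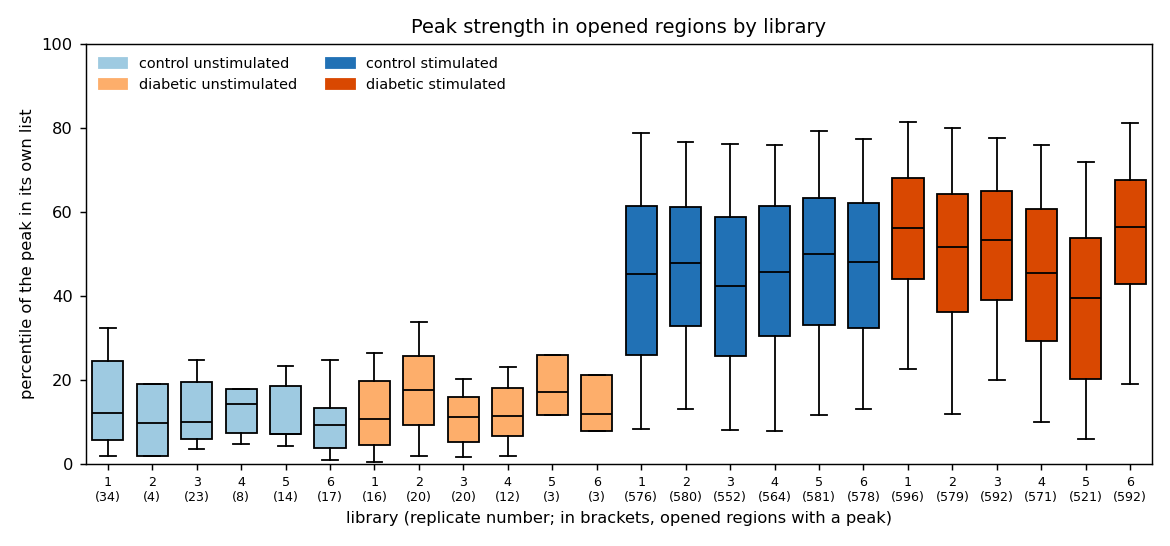
Boxes show the percentile of the peaks in opened regions within their own list for each library (box, quartiles; line, median; whiskers, the central 90%), with the number of regions with a peak in brackets. Medians are 39.4 to 56.3 in the stimulated libraries and 7.12 to 17.4 in the unstimulated ones, where only the few regions with a peak enter.

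Opened regions were mostly distal. Their median width was 474 bp (range 241 to 1448), against 355 bp for all merged regions, 384 bp for closed regions and 668 bp for the other regions of stimulated libraries. The median distance from the summit to the nearest end of a protein-coding gene was 25123.5 bp, against 21197 bp for closed regions and 8195.5 bp for the others. Summits within 1 kb of a gene end were found in 19 opened regions (3.19%), 25 closed regions (3.79%) and 31.7% of the others. Regions more than 10 kb from any gene end made up 73.5% of opened, 66.6% of closed and 46.7% of other regions. Over all merged regions, 15.3% lay within 1 kb and 59.1% beyond 10 kb, with a median distance of 15520.5 bp. Gene bodies contained 334 opened regions (56.0%), near the 56.4% of closed and 57.2% of all merged regions, against 61.2% of the others. Opened regions thus lay somewhat farther from gene ends than closed ones, and both lay farther than the other regions of stimulated libraries. Regions are not replicates, and these shares were not tested.

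**Figure D3:**
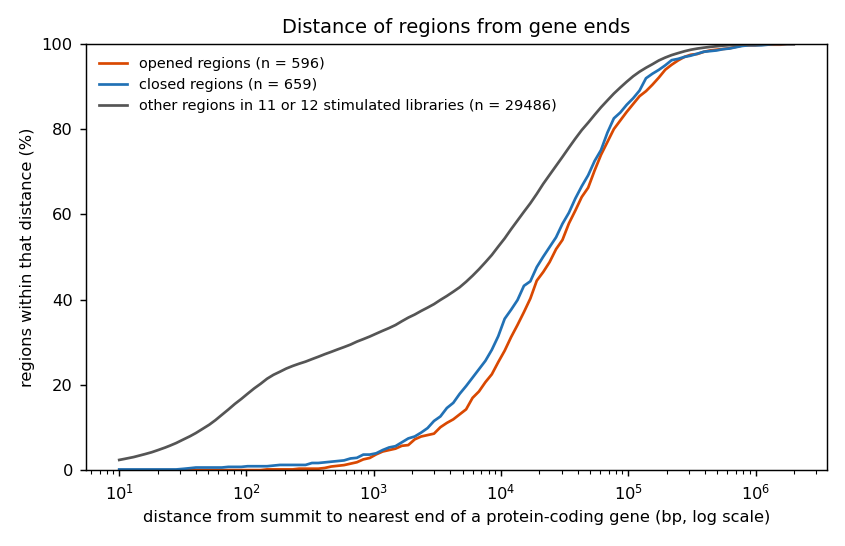
Curves show the cumulative share of regions whose summit lies within a given distance (log scale) of the nearest protein-coding gene end, for opened, closed and other regions of stimulated libraries. Within 1 kb the shares are 3.19% of opened, 3.79% of closed and 31.7% of other regions, and the median distances are 25123.5, 21197 and 8195.5 bp.

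Opened regions often lay near other accessible sites. A region open at rest, found in at least 11 unstimulated libraries, lay within 10 kb of 349 of them (58.6%), against 63.6% of closed and 53.7% of other regions. Another opened region lay within 100 kb of 107 (17.95%), while an opened region lay that near to 11.2% of closed and 10.6% of other regions. Closed regions had another closed one within 100 kb in 17.6% of cases. Chromosome 1 held the most opened regions, 60, and as a share of the regions found in at least 11 stimulated libraries they ranged from 1.09% on chromosome 5 to 3.04% on chromosome 16, leaving out chromosome Y with 0 of 3.

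Each region was assigned to the nearest protein-coding gene body within 50 kb, which 503 regions had. The nearest gene need not be the one a region acts on. These were 461 genes, of which 5 had 3 regions and 32 had 2. The 5 were Pla2g4a, the cytosolic phospholipase that releases arachidonic acid, Pde4b, a phosphodiesterase that breaks down cyclic AMP, the transcriptional cofactor gene Jazf1, Macc1, and Dtd1, the gene of an enzyme that clears mischarged transfer RNA. At Pla2g4a, both intragenic regions (chr1:149855466-149855951 and chr1:149862734-149863355) lay 6783 bp apart and had median percentiles of 51.1 and 46.6. The third region, 18645 bp from the gene, was at 51.2. The Dtd1 regions span chr2:144707451-144745203, and 2 of them, at median percentiles of 70.4 and 70.8, were stronger than most members.

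Clusters of 3 opened regions within 100 kb were seen at 6 places, against 4 for closed regions. Dtd1, Jazf1, Macc1 and the neighbours Itpr1 and Sumf1 each held 1 inside or beside the gene, and 1 lay near the zinc finger factor gene Klf6 (chr13:5776796-5823658), its nearest region 38068 bp from the gene. The sixth (chr1:150202954-150252185) had no gene within 50 kb. Ptgs2, which encodes cyclooxygenase-2, the enzyme that turns arachidonic acid into prostaglandin precursors, was the nearest gene of 2 of its regions, at 94983 and 100163 bp. The third (chr1:150251712-150252185), nearest to Pdc at 67469 bp, had a median percentile of 91.2 and was found in 12 stimulated libraries and 1 unstimulated one.

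Among regions at 12 and 0, the strongest lay within Nfkb1, the gene of the NF-κB precursor p105 (chr3:135640137-135640654). Its percentiles had a minimum of 88.7, a median of 93.6 and a maximum of 99.2 in stimulated control and of 83.4, 93.6 and 96.6 in stimulated diabetic libraries. The second lay 51244 bp from Ripk2, the kinase that carries the signal of the NOD receptors (chr4:16071161-16071815), with medians of 90.2 in control and 87.8 in diabetic libraries. The next 8, with medians over all stimulated libraries from 75.6 to 85.8, were near Id2, Phip, Grm5, Fpr2, Tnfsf15 and Cdk20 and within Dapp1 and Papss1. In all 10 regions, the ranges of control and diabetic libraries overlapped.

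Lists of genes of macrophage activation were used to order the set by role. Of 260 listed genes, 255 were matched and 32 had an opened region, 34 regions in all or 5.70% of the set. At list genes, 661 regions were found in at least 11 stimulated libraries, and opened regions were 5.14% of these, against 1.86% over all protein-coding genes (503 of 27110). The lists were drawn up with earlier results of these data known, so the difference is a description.

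Opened regions lay at genes of NF-κB and of its feedback. The list of NF-κB subunits and IκB proteins had 1 opened region at 1 of 15 genes, Nfkb1, and 1 closed region. The opened one was 2.33% of the list's 43 regions found in at least 11 stimulated libraries, near the overall 1.86%. The list of negative feedback genes had 5 at 5 of 19 genes, or 6.67% of its 75 regions found in at least 11 stimulated libraries, and it also had 7 closed regions at 5 genes. The opened ones were at Irak3, an inactive kinase that restrains Toll-like receptor signalling, and at Tnfaip3 and its partner Tnip1, which limit NF-κB through ubiquitin chains. Further ones were at the phosphatase gene Dusp16 and at Usp18, which blocks interferon receptor signalling. The Irak3 region (chr10:120191193-120191551) had percentiles of 40.7, 60.8 and 80.6 (minimum, median and maximum) in control and 57.5, 70.2 and 82.6 in diabetic libraries, which overlap. The region 11439 bp from Tnfaip3 (chr10:19026657-19027042) was weaker, with medians of 21.1 and 33.5, and lacked a peak in control replicate 1. The list of Toll-like receptor and related signalling genes had 1 opened region at 1 of 21 genes. It was at Nod2, the gene of a NOD receptor that senses bacterial peptidoglycan. That was 1.33% of the list's 75 regions found in at least 11 stimulated libraries, and the list had 2 closed regions, at Tlr2.

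Interferon signalling had opened regions at 2 genes of its factors, near the overall share of 1.86%, and at its effectors. The list of JAK kinases and of factors downstream of interferon receptors had 2 at 2 of 24 genes. That was 2.53% of its 79 regions found in at least 11 stimulated libraries, and it had 0 closed regions. Its opened regions include 1 at 24969 bp from Irf8, a myeloid lineage factor that IFNγ induces (chr8:120711154-120711625). The Irf8 region had medians of 43.3 in control and 68.9 in diabetic libraries and ranges that overlapped. Interferon-induced effectors had 4 regions at 3 of 28 genes, 10.8% of their 37 stimulated regions. Among them, 2 were at Ifit2, an antiviral RNA-binding protein, 1 within the gene and 1 at 918 bp, and the others were at the RNA sensor gene Ifih1 and the GTPase gene Ifi47. Interferon-inducible GTPases had 2 at 2 of 16 genes, 11.1% of their 18 stimulated regions, and 1 closed region. The opened ones were at Gbp2 and Gbp5, which attack vacuoles that hold pathogens. The Gbp5 region (chr3:142524003-142524656) had medians of 45.9 in control and 34.8 in diabetic libraries, and the ranges overlapped. The list of antigen presentation genes, many of them induced by IFNγ, had none at 16 genes, and that of AP-1 and BATF factors none at 15. With 20 and 45 regions found in at least 11 stimulated libraries, these lists were too small for a count of 0 to stand apart from the overall share of 1.86%.

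Opened regions also lay at genes of secreted signals and their receptors. Cytokine genes had 4 regions at 4 of 19 genes, 8.70% of their 46 regions found in at least 11 stimulated libraries, and 2 closed regions. The opened ones were at Il12b, a subunit of the cytokines that drive Th1 and Th17 responses, Il15 with its receptor gene Il15ra, and the alarmin gene Il33. The Il12b region, at 17709 bp, had percentiles of 5.07, 60.4 and 70.5 in control and 58.2, 61.8 and 85.4 in diabetic libraries, with 1 control library far below the rest. Chemokines and their receptors had 4 at 4 of 21 genes, 8.70% of their 46 stimulated regions, and 0 closed regions. The neighbouring genes Cxcl9 and Cxcl10, which draw T cells through CXCR3, had regions 18433 bp apart with medians over all stimulated libraries of 17.4 and 48.2. The formyl peptide receptor genes Fpr1 and Fpr2, which sense bacterial peptides, had regions 32225 bp apart at 52.4 and 80.9. Members of the TNF superfamily and costimulatory genes had 6 regions at 5 of 22 genes, 7.41% of their 81 stimulated regions, and 4 closed regions. The opened ones were at Tnfsf15 and Tnfsf8, whose regions lay 79541 bp apart, Tnfsf4 with 2, the CD30 gene Tnfrsf8, and Cd86, the ligand of CD28.

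Enzymes of classical activation had 1 closed region and 3 opened regions at 3 of 22 genes, 5.08% of their 59 regions found in at least 11 stimulated libraries. Nos2, the inducible nitric oxide synthase, had one 31544 bp away (chr11:78889034-78889453) with percentiles of 8.72, 36.8 and 57.8 in control and 17.2, 31.8 and 49.004 in diabetic libraries, and another opened region lay 12533 bp from it. Acod1, the enzyme that makes itaconate, had one 374 bp beyond the gene, and Ido2, related to tryptophan breakdown, had one within it. Genes of alternative activation, the state that IL-4 drives, had 1 closed region and 2 opened ones at 2 of 20 genes, 4% of their 50 stimulated regions. The opened ones were near the transcription factor gene Egr2 and within Ppargc1b, a coactivator of mitochondrial genes. The macrophage marker list had 1 opened region among 53 stimulated regions, in Mitf, and the stromal list 1 among 12, near Dcn. The neutrophil, T and NK cell, B cell, dendritic and erythroid lists had none, with 6, 6, 1, 29 and 6 stimulated regions. These are too few for a count of 0 to stand apart from the overall share.

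**Figure D4:**
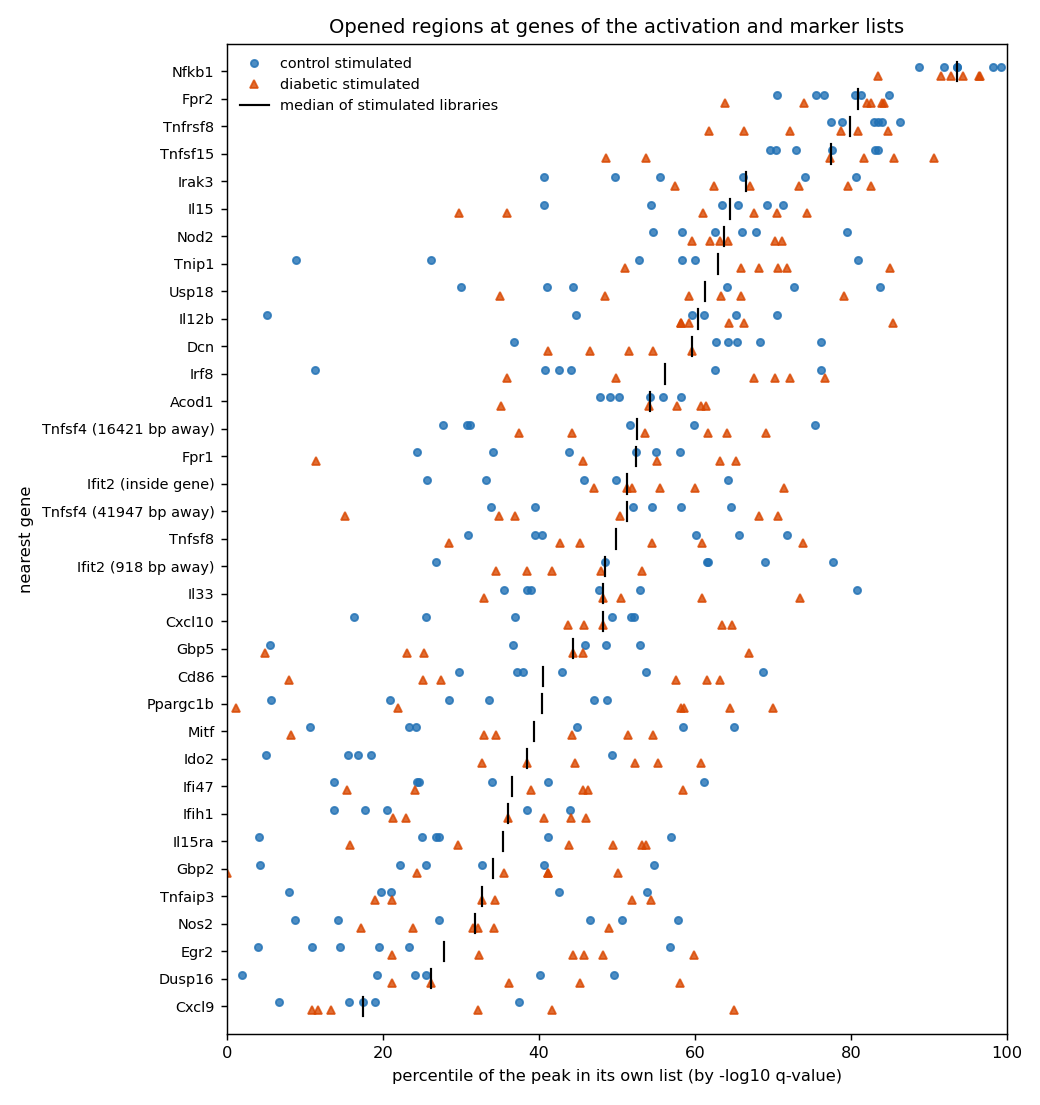
Points show the percentile of the peak in its own list for opened regions nearest to genes of the pathway and marker lists, in each stimulated control library (circles) and stimulated diabetic library (triangles), with the median as a line. The Nfkb1 region stands at a median of 93.6 and the Cxcl9 region at 17.4, and the ranges of control and diabetic points overlap in every region shown.

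Opened regions near gene ends were few enough to name. Summits within 1 kb of an end were found at the early activation marker gene Cd69, at Sparc, Ocln, Sh3rf1, Cd164, Tmem30a, Nat10, Atp8b3, Nt5c1a, Dusp15, Hoatz, Zfp811 and 1700012B09Rik, besides Acod1, Cxcl9, Cxcl10, Dusp16, Gbp2 and Ifit2. The gene table gives no strand, so a gene end here is its start or its stop. The strongest were at Hoatz and Zfp811, with median percentiles of 71.5 and 70.9, and the Cd69 region (chr6:129265940-129267387) was wide and weak, with a median of 27.6.

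The rule used all 24 libraries, so regions were chosen anew in 1 phenotype alone, with a peak in all 6 stimulated and no unstimulated library, and read in the libraries of the other. The members among them had already been chosen with both phenotypes, so for members the rule had set a gain in the other phenotype too. The counts describe the regions chosen anew and are no support for the members. Regions that are not members were not counted apart. No share over all regions is given beside the counts of regions with more stimulated libraries. Of 441 regions chosen in control macrophages, 377 of them members, all 441 had a peak in more stimulated than unstimulated diabetic libraries. In diabetic macrophages, 233 (52.8%) again had 6 against 0 libraries, which are the 233 members at 12 and 0. That was the one pattern of gain that passed Fisher's exact test there, two-sided and run region by region (adjusted p = 0.0243, Benjamini-Hochberg over 11708 regions), and 5.47% of all tested regions showed it. All 233 are members, so the rule had set this pattern and their passing is no support. Of 641 regions chosen in diabetic macrophages, 413 of them members, 633 had more stimulated than unstimulated control libraries, 1 had fewer and 7 had as many. In control macrophages, the same 233 (36.3%) had 6 against 0 libraries. A wider set of patterns passed there, and 387 (60.4%) passed Fisher's exact test as gained (adjusted p from 0.0173 to 0.0422), against 8.41% of the 12111 regions tested. Every pattern of gain that passed there meets the rule when added to 6 against 0 diabetic libraries. All 387 are therefore members, the rule had set these patterns, and their passing is no support. This check was added after the data had been seen.

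Whether diabetes changed the strength of opened regions was asked within stimulated macrophages. All 25221 regions with a peak in each of the 12 stimulated libraries were ranked by −log10 q-value within each library, the ranks were turned into normal scores (0 at the middle of the ranking, in units of its SD), and 6 diabetic were compared with 6 control libraries by limma. Of the members, 326 entered, and the 270 with a peak in 11 stimulated libraries could not. No member passed an adjusted p of 0.05 and neither did any other region (0%), and the lowest adjusted p by limma was 0.578. At an unadjusted p below 0.05, 27 members were lower and 8 higher in diabetic libraries (8.28% and 2.45%), against 2.94% and 3.06% of all regions, and the exact permutation test gave 20 and 5. Of the 326 members, 197 had a lower mean score in diabetic libraries and 129 a higher one (60.4% lower, against 50.7% of all regions), with a median difference of -0.083 against -0.0043. Without diabetic replicate 5 the counts were 178 lower and 148 higher, and the median difference -0.048. At an unadjusted p below 0.05 by limma, 27 members were then lower and 11 higher (8.28% and 3.37%). Over all 25221 regions these counts were 1106 and 1038.

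The region with the lowest p lay within Map3k5, the gene of the stress kinase ASK1 (chr10:19999675-20000148). Its percentiles were 5.91, 21.01 and 40.2 (minimum, median and maximum) in stimulated control and 58.3, 66.8 and 71.9 in stimulated diabetic libraries. The phenotypes did not overlap there, also on the score scale, where the difference was 1.36 (SE 0.268, adjusted p = 0.578 by limma). The other 4 leading regions with higher scores in diabetic libraries were within Vopp1 (0.70), within Hrh2, the histamine H2 receptor gene (0.76), within Nrp2, a receptor for semaphorins (0.93), and 243249 bp from Tox (0.78).

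In the other direction, the region 6869 bp from Marcks, which encodes a protein kinase C substrate at the membrane (chr10:37145575-37146015), had percentiles of 26.9, 51.2 and 66.2 in control and 15.2, 22.2 and 35.8 in diabetic libraries, with an overlap. Its score difference was -1.13 (SE 0.276, adjusted p = 0.744 by limma). Lower scores were also seen 13873 bp from the zinc transporter gene Slc30a4 (-0.97), within C9orf72 (-0.67) and 426660 bp from Alcam (-0.87). None of the regions named passed the adjusted threshold. All of them kept their direction in every alternative that included them. They were picked by p-value in these same libraries, and the exact test and replicate block leave the difference unchanged, so this is no support.

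**Figure D5:**
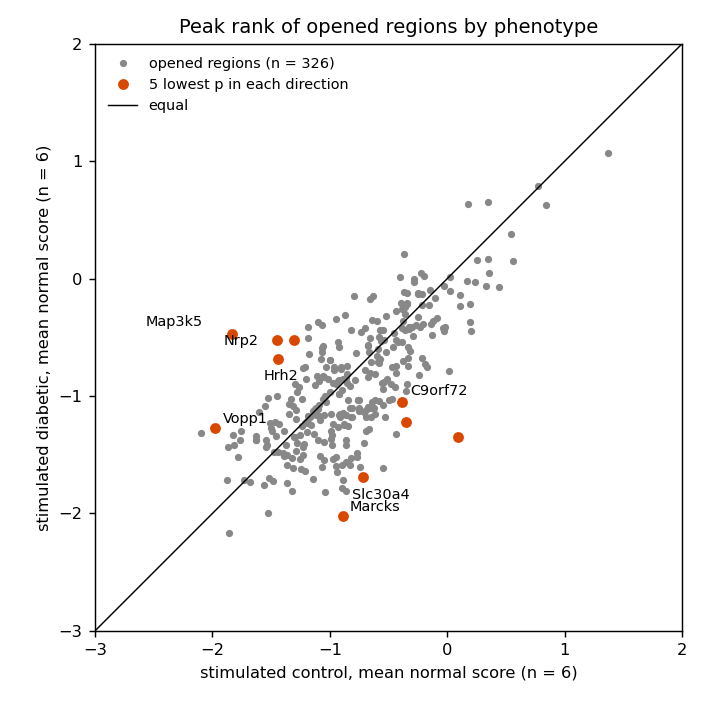
Each point is 1 of the 326 opened regions found in all 12 stimulated libraries, placed by its mean normal score in 6 stimulated control (x) and 6 stimulated diabetic libraries (y), with the line of equality and the 5 lowest p-values in each direction in orange (most of them named by a gene within 50 kb). Points below the line, 197 of 326, have a lower score in diabetic libraries. None passed the adjusted threshold.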

How the data were processed

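ATAC-seq peak lists of 24 libraries were used, 1 list per library, called separately, with coordinates in mm10. Per the submitters' processing notes, MACS2 2.1.1, Bowtie2 2.2.6, Trim Galore, FastQC 0.11.3, edgeR and DiffBind 2.4.8 were used. What each did, with which settings and with or without a Tn5 shift of the reads, is not given in the sources used here. For every peak the authors deposited a score, the fold enrichment at the summit, a −log10 p-value and a −log10 q-value. They served to describe and rank peaks within a list. The lowest deposited −log10 q-value was 1.30, which sets what counts as detected.

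Peaks were merged, counted by library and assigned to RefSeq genes (GRCm38.p6, no strand) with Python 3.11.15. The phenotype contrast used limma 3.58.1 in R 4.3.3 with Benjamini-Hochberg adjustment over 25221 regions at 0.05, and was tested on simulated data. The simulation gave every region the same normally distributed spread. There, limma called 56 of 100 regions set to differ by 1 normal score and all 100 set to differ by 2. It also called 7 of 25021 unchanged regions. A count of 0 therefore does not exclude differences of about 1. Detection in the phenotype not used for choosing was compared by Fisher's exact test (two-sided). The members, gene lists and rules were chosen with earlier results of these data known. Named regions were the 10 strongest at 12 and 0 libraries, those at list genes, genes or 100 kb stretches with 3 regions, those at promoters or gene ends, the 5 lowest phenotype p-values in each direction, and the 5 strongest single resting peaks. The values of 1 named gene are not reported here. Promoter windows covered only part of the genes. Distal regions were not searched for motifs because genome sequence was not used here. Replicate numbers did not pair control with diabetic libraries, and the comparisons were unpaired. Alternatives were other thresholds, overlaps, list lengths, tests and left-out libraries.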

Additional observations from a re-analysis of the deposited data

Results flagged for a closer look

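The number of opened regions with a peak was 521 in stimulated diabetic replicate 5, against 571 to 596 in the other stimulated diabetic libraries. The gap to the next library was 0.667 of the range of the group, above the critical value of 0.625 of Dixon's test for 6 samples. Of 10 combinations of group and measure, this was the 1 past the limit, and chance passes about 1 in 20 for independent values. The rule lets a member lack a peak in 1 stimulated library at most. These counts are therefore not independent, and the limit is only a guide. The peak list of that library was also the shortest of its group, with 46503 peaks. Its part in the count was not tested.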

How the results depend on the processing

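Peaks with a −log10 q-value of at least 5 gave 344 opened regions (206 of them among the 596), a rule of 12 and 0 libraries gave 233, and a rule of at least 10 and at most 2 gave 1031. Lists of equal length gave 697 (353 among the 596), fixed windows around the summits gave 613 (587), control libraries alone 441 (377) and diabetic libraries alone 641 (413). With a gene distance of 20 kb, 73.8% of opened regions had a gene, against 84.4% at 50 kb. Of regions chosen in 1 phenotype with lists of equal length, 99.2% of 616 were found in more stimulated libraries of the other. This share is no support for members, for which the rule sets such a gain.

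The count of phenotype calls was 0 in the 6 limma fits, with lowest adjusted p-values from 0.374 (without diabetic replicate 5, by limma) to 0.939 (replicate number as a block, by limma). The exact permutation test also gave 0, but the smallest p it can give is 0.00216 before adjustment, too large for single regions to pass, so its count says nothing about stability. Same-numbered control and diabetic libraries did not deviate together (correlations from -0.226 to 0.0554, 0 of 6 pairs over 0.1), and 1 library of 6 correlated best with its own number, so the replicate block adds no pairing. It gave 0 calls. Leaving out diabetic replicate 5 and choosing in 1 phenotype were added after seeing the data. Other libraries were not left out in turn. Peak lists hold no depth, so a region missing from a short list may be below its threshold.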

Other observations

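Opened and closed regions shared some nearest genes. Of the 461 genes with an opened region within 50 kb and the 510 with a closed one, 38 were shared, 8.24% of the first and 7.45% of the second. They included Nfkb1, Tnfaip3, Acod1, Tnfsf8 and the adhesion receptor gene Cd44 with 1 of each kind, and Irak3 with 1 opened and 2 closed regions. Pde4b had 3 opened and 1 closed, the leukocyte phosphatase gene Ptprc had 2 and 1, and App and Nedd4l had 1 and 3. At Irak3 the opened region lay 1745 bp from a closed one, and at Rin2 the distance was 3454 bp. These are counts by nearest gene and were not tested. A closed region lay within 100 kb of 11.7% of opened regions, 11.8% of the other regions found in at least 11 stimulated libraries and 10.7% of all merged regions.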
